A study of Mus musculus with 6 samples.

Results

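Exonic peaks of Ago2-bound RNA were examined in 10 genes of transforming growth factor beta (TGF-beta), activin and bone morphogenetic protein (BMP) signalling, namely Tgfbr1, Tgfbr2, Acvr1, Acvr2a, Acvr2b, Bmpr1a, Bmpr2, Smad2, Smad4 and Smad7. A peak was taken as a member peak when it overlapped an exon of 1 of these genes by at least 1 bp. All 10 genes had such a peak in at least 1 library, out of 13241 annotated genes with one. The 199 member peaks of 5 libraries merged into 58 intervals, out of 38946 exonic intervals in all.

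RISC-IP is the pull-down of the RNA-induced silencing complex with an antibody against its core protein Ago2, which carries a miRNA and the mRNAs paired with it. The cells were MSC myocytes, that is, primary mouse satellite cells (muscle stem cells) placed in differentiation medium (DM), and the labels name the source as myotubes. They had 30 h in DM before transfection with a miR-222 duplex or a control duplex against GFP (siGFP), and 16 h in DM after it. The labels give the duplex as 10 nM and the study's methods give another concentration. Sequenced RNA came from 4 control-IPs and 2 miR-222-IPs in 2 experiments, each experiment with 2 control-IPs and 1 miR-222-IP. The strain, sex and number of the donor mice were not given in the sources used here. No input RNA was used here, so a gene with more RNA in the cells and a gene more often held by Ago2 cannot be told apart, and neither can fewer cells of a type and less RNA per cell.

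Ligands of this family bind a pair of type II and type I serine/threonine kinase receptors at the cell surface, and the type II receptor activates the type I receptor. The type I receptor then phosphorylates receptor-regulated Smad proteins, which join the common partner Smad4 and act on genes in the nucleus, while inhibitory Smads such as Smad7 oppose the signal. In skeletal muscle, TGF-beta and myostatin are known as brakes on the differentiation and growth of muscle cells.

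Each value below is the −log10 p that the authors' peak caller gave to a peak, listed only above 20, so a higher value is a clearer enrichment over the background of that library. It grows with sequencing depth, transcript level and exon length, so it is compared between libraries for the same interval and not between genes. Values are given for the control-IPs in the order of replicates 1, 2 and 4, then for the miR-222-IPs in the order of replicates 1 and 2. Library depth is unknown from the lists, which held from 10579 peaks (control-IP replicate 1) to 37762 (miR-222-IP replicate 2). Control-IP replicate 3 stood apart, with 3619 peaks of 32100 bp median width against 362 to 411 bp in the other 5 libraries, and with peaks on 10 chromosomes only (1 and 10 to 18), the last of them ending at chr18:47281488. Tgfbr1, Tgfbr2, Acvr1, Acvr2a and Acvr2b lie on chromosomes outside that list and the Smad genes past its end, so it says nothing of these 8 genes. It is kept apart here, and it held only Bmpr1a, under a peak of 91128 bp at 63.2, and Bmpr2, under a peak of 227207 bp at 46.1.

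The markers of the labelled cell type were uneven between libraries. Of 13 myocyte genes, 11 had an exonic peak and Myf5 and Myf6 had none in any of the 5 libraries. Their highest −log10 p values summed to between 403 and 443 in the 3 control-IPs. The sum was 583 for miR-222-IP replicate 1 and 1550 for miR-222-IP replicate 2. Myog, the differentiation factor myogenin, was listed in miR-222-IP replicate 2 alone, at 75.7. All 5 macrophage and blood genes had peaks and summed to between 654 and 778 in the 3 control-IPs, with 725 and 764 for the miR-222-IPs. Adgre1, a macrophage surface receptor, lay between 196 and 236 in all 5 libraries. Of the fibroblast genes 3 of 6 had a peak (sums 0 to 20.7 in the control-IPs, 40.2 and 73.2 in the miR-222-IPs, with Col1a1, Dcn and Lum without a peak), of the endothelial genes 2 of 5 (26.1 to 106, and 29.8 and 58.0, with Kdr, Tek and Emcn without) and of the adipocyte genes 0 of 4. Of the 11 listed muscle genes, 10 were highest in miR-222-IP replicate 2, and the exception was the transcription factor Mef2c, at 175 there and at 120 to 194 in the other 4 libraries. Of the macrophage and blood genes 4 were listed in all 5 libraries, and Ptprc was missing from control-IP replicate 1. The part of either list in the results on the pathway genes was not tested.

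The miR-222 seed, bases 2 to 8 of the mature miRNA, is shown first because it sets what a direct site for the transfected duplex would look like. Seeds are in capitals. Sequences are from RefSeq on GRCm38.p6.

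miR-222: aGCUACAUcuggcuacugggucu

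Its complement ATGTAGC, searched on the transcribed strand only, occurred 3 times in exons of the 10 genes. A pair of these sites lay under peaks, both in the 3′UTR of Tgfbr1, and are shown with their surroundings and the 7-mer in capitals. The first starts 1197 bases after the stop codon at chr4:47411974-47411980, and the second 3072 bases after it at chr4:47413849-47413855.

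Tgfbr1 site 1: tttcacatgttATGTAGCtgtaagtatttg

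Tgfbr1 site 2: cttaagtggccATGTAGCcatttttgtaat

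The remaining site, in the 3′UTR of Bmpr1a at chr14:34411323-34411329, had no peak in any of the 5 libraries. Both Tgfbr1 sites fell in 1 interval, so 1 of 58 member intervals (1.72%) held the 7-mer in its exon bases, against 1.91% of 37545 exonic intervals of known strand. Among intervals wider than 1000 bp these shares were 1 of 8 and 8.55%. A share near that of all intervals is not a result about these genes.

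Among miRNAs that muscle and other cells carry themselves, seed matches of 10 further families were searched in the same way. Of 76 matches in exons of the 10 genes, those of miR-222 included, 43 lay under a peak, that is 29 of 46 in 3′UTRs and 14 of 30 elsewhere. The share over all exons was not computed, so these counts are a description. The matures of 4 families are shown as examples, chosen after the values were seen, and let-7a, miR-27a, miR-29a and miR-30a also had matches under peaks in 3′UTRs of the receptors.

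miR-21a: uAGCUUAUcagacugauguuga

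miR-130a: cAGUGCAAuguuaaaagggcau

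miR-17: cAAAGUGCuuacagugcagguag

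miR-15a: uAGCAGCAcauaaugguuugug

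Their matches are ATAAGCT for miR-21a, TTGCACT for miR-130a, GCACTTT for miR-17 and TGCTGCT for miR-15a, and those of miR-130a and miR-17 overlap in TTGCACTTT. Examples from Tgfbr1 (chr4:47412735-47412741), Tgfbr2 (chr9:116090136-116090142 and chr9:116090074-116090080), Acvr1 (chr2:58447080-58447086 and chr2:58447109-58447115), Acvr2a (chr2:48900287-48900293) and Acvr2b (chr9:119434680-119434686) follow, all under peaks of at least 2 libraries.

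Tgfbr1, miR-21a: cacctgcttaaATAAGCTcttgtgctataa

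Tgfbr2, miR-21a: gactgtcatggcATAAGCTgtgctagcacc

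Tgfbr2, miR-17 (within TTGCACTTT): ccaataacgtttGCACTTTattaatgcctg

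Acvr1, miR-130a, site 1: tgcattccttacTTGCACTgtggcccttaa

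Acvr1, miR-130a, site 2: atctactcttcgTTGCACTaggaattctgt

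Acvr2a, miR-15a: aatgtgtagtgTGCTGCTgttctgtgtaca

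Acvr2b, miR-15a: aatgttcttaaTGCTGCTgtttcgacattg

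The miR-21a match was in 4 of 58 member intervals (6.90%), in Tgfbr1, Tgfbr2, Bmpr2 and Smad7, against 1.56% of exonic intervals. All 4 were among the 8 member intervals wider than 1000 bp, and 6.05% of all exonic intervals of that width held the match. For miR-130a the counts were 5 of 58 (8.62%) against 2.54%, for miR-17 3 of 58 (5.17%) against 3.23%, and for miR-15a 12 of 58 (20.7%) against 8.46%. For miR-27a they were 7 of 58 (12.1%) against 4.95%. The shares of the other families were 1.72% against 2.81% for miR-206 and 3.45% each for let-7a, miR-26a, miR-29a and miR-30a, against 3.04%, 2.30%, 4.75% and 3.05%. Shares of intervals were thus above the background for some families and below it for miR-222, miR-206 and miR-29a. For miR-222 the order turned with the measure, at 0.662 sites per 10 kb of exon against 0.49. Among all exonic intervals wider than 1000 bp the shares were 9.95% for miR-130a, 12.9% for miR-17, 25.0% for miR-15a and 15.4% for miR-27a. Of the 8 member intervals of that width 4, 3, 6 and 3 held these matches, in the same order. For let-7a, miR-29a and miR-30a it was 2 of 8 each, against 9.3%, 13.4% and 13.1%. No member interval of that width held a match of miR-206 or miR-26a, against 9.9% and 8.42%. Widths within this class were not matched. The seed matches are matches of letters and not shown to be bound.

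Peaks of the 10 genes covered mostly coding exons. Of the 58 intervals, 38 touched coding sequence (CDS) alone, 9 CDS and 3′UTR, 6 the 5′UTR and CDS, 3 the 3′UTR alone and 2 the 5′UTR alone. Of the 37 CDS intervals over exactly 1 exon, 35 contained the whole exon and ran past it by a median of 98 bp on the left and 97 bp on the right, and the median interval of CDS had 48.5% of its bases outside exons against 46.9% for all such intervals. A 3′UTR was touched by 48 of 199 member peaks (24.1%), against 32.7% of 102676 exonic peaks. By library the member share was 29.2%, 25.6% and 25.0% for the control-IPs, then 22.5% and 21.4% for the miR-222-IPs, and the share of all exonic peaks was 39.2%, 37.1%, 33.3%, 32.8% and 28.1% in the same order. The member share was thus below that of all exonic peaks in each of the 5 libraries, but for peaks with at least 50% of their bases in a 3′UTR it was close to it, with the same member shares against 31.3%, 28.8%, 26.0%, 25.7% and 21.5%.

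The number of member intervals with a peak was 23, 35 and 38 of 58 for the control-IPs and 40 and 56 for the miR-222-IPs, or 39.7%, 60.3%, 65.5%, 69.0% and 96.6%. Over all exonic intervals the shares in the same order were 25.4%, 47.0%, 43.8%, 51.8% and 92.3%, so both were lowest for the shortest list and highest for the longest, while control-IP replicates 2 and 4 stood in opposite orders. By gene, 7, 8 and 9 of the 10 had a peak in the control-IPs and all 10 in each miR-222-IP, while 21.4%, 34.8%, 29.8%, 33.2% and 44.7% of protein-coding genes did.

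Of the 58 intervals, 17 (29.3%) had a peak in all 5 libraries, against 19.8% of all exonic intervals. Another 16 had a peak in 4 libraries, and 10 of these lacked control-IP replicate 1 alone, the library with the shortest list. Without control-IP replicate 1, 27 intervals had a peak in each of the 4 libraries left. Among the genes, 6 of 10 (Tgfbr1, Tgfbr2, Acvr1, Bmpr2, Smad2 and Smad7) had an exonic peak in every one of the 5 libraries, against 40.4% of the 10289 protein-coding genes with any peak.

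Just 2 intervals, the first of Acvr2a and the only one of Acvr2b, had a peak in both miR-222-IPs and in no control-IP (3.45%, against 6.54% of exonic intervals). For 10 intervals the single listed peak was that of miR-222-IP replicate 2 (17.2%, against 30.9%). Control-IP replicate 2 alone had 2 (3.45%, against 5.63%), namely Tgfbr2 interval 2 at 21.8 and Acvr1 interval 1 at a slightly lower value. With the 10579 highest peaks of each library, 34 member intervals were left, and both the count for the miR-222-IPs alone and that for miR-222-IP replicate 2 alone were 0, against 1.35% and 5.78% of 16793 exonic intervals. Equal lists drop low peaks, and the 2 intervals of the miR-222-IPs alone had values of 21.5 to 37.4, so the 0 follows in part from how the lists were made.

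**Figure D1:**
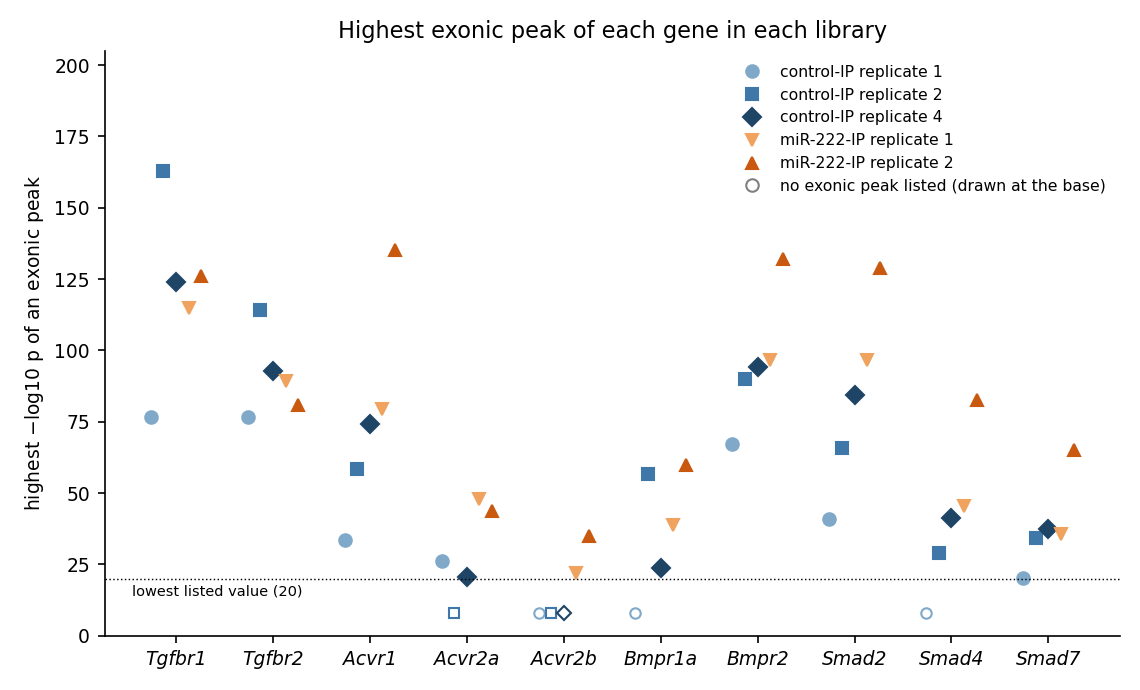
Highest −log10 p of an exonic peak (vertical axis) for each of the 10 genes in the 5 libraries with narrow peaks, with blue symbols for control-IPs, orange symbols for miR-222-IPs and open symbols at the base where no peak was listed. Acvr2b was listed in the miR-222-IPs only, at 21.8 and 34.8, and miR-222-IP replicate 2 was highest for 7 of the 10 genes.

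Among the type I receptors, Tgfbr1 (chr4:47353222-47414931, plus strand) encodes the kinase that passes on the TGF-beta signal. It had 8 intervals over 8 of its 9 exons, and 7 of these were listed in all 5 libraries. Its highest interval contained exon 2 (chr4:47383659-47384100), at 76.6, 163 and 124 for the control-IPs, then 115 and 126 for the miR-222-IPs. Both miR-222-IPs lay within the range of the control-IPs before scaling.

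The last interval of Tgfbr1 (interval 8, chr4:47410676-47414873) held the end of the CDS and the 3′UTR with both miR-222 sites. Its highest −log10 p was 70.0, 78.6 and 63.9 for the control-IPs, then 51.2 and 42.2 for the miR-222-IPs. The groups did not overlap, with both miR-222-IPs below all 3 control-IPs. Peaks covered 98.6% of the 3′UTR over all libraries together, and they were cut differently by library. In each miR-222-IP 1 peak ran over 4066 or 4096 bases of 3′UTR, whereas the caller listed 2, 3 and 2 peaks over 3722, 2297 and 3765 bases for the control-IPs. The values thus belong to peaks of unequal width, and the part of this in the lower values was not tested beyond an average by length given with the ratios. The first miR-222 site was under a peak of 4 libraries, all except control-IP replicate 2, and the second under a peak of all 5.

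Acvr1 (chr2:58388644-58567157, minus strand) encodes a type I receptor for activin and BMP ligands. Its 8 intervals covered 8 of 13 exons, and 2 were listed in all 5 libraries. Interval 5, over exon 10 (chr2:58462788-58463218), had 33.5, 22.8 and 62.6 for the control-IPs, then 79.5 and 135 for the miR-222-IPs. Here both miR-222-IPs were above all 3 control-IPs, before and after the scaling described with the ratios. Interval 6, over exon 11, had 33.5, 43.3 and 74.3 in the control-IPs and 49.0 and 94.1 in the miR-222-IPs, so the groups overlapped. The 3′UTR interval with the pair of miR-130a matches was at 58.5 and 26.7 in control-IP replicates 2 and 4, at 45.4 and 63.3 in the miR-222-IPs and not listed in control-IP replicate 1.

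Bmpr1a (chr14:34410734-34503341, minus strand), a BMP type I receptor, had 3 intervals over 4 of 13 exons and none in all 5 libraries. Its highest peak lay in interval 2, over exon 10 (chr14:34422469-34422951), which was at 34.1 and 23.3 for control-IP replicates 2 and 4, with 38.9 and 59.9 for the miR-222-IPs. The listed values of this interval did not overlap, before or after scaling. Interval 3, over the last exons and the 3′UTR, was at 56.6 and 23.7 in these control-IPs and at 23.4 and 47.8 in the miR-222-IPs. Its groups overlapped, and control-IP replicate 1 had no Bmpr1a peak.

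**Figure D2:**
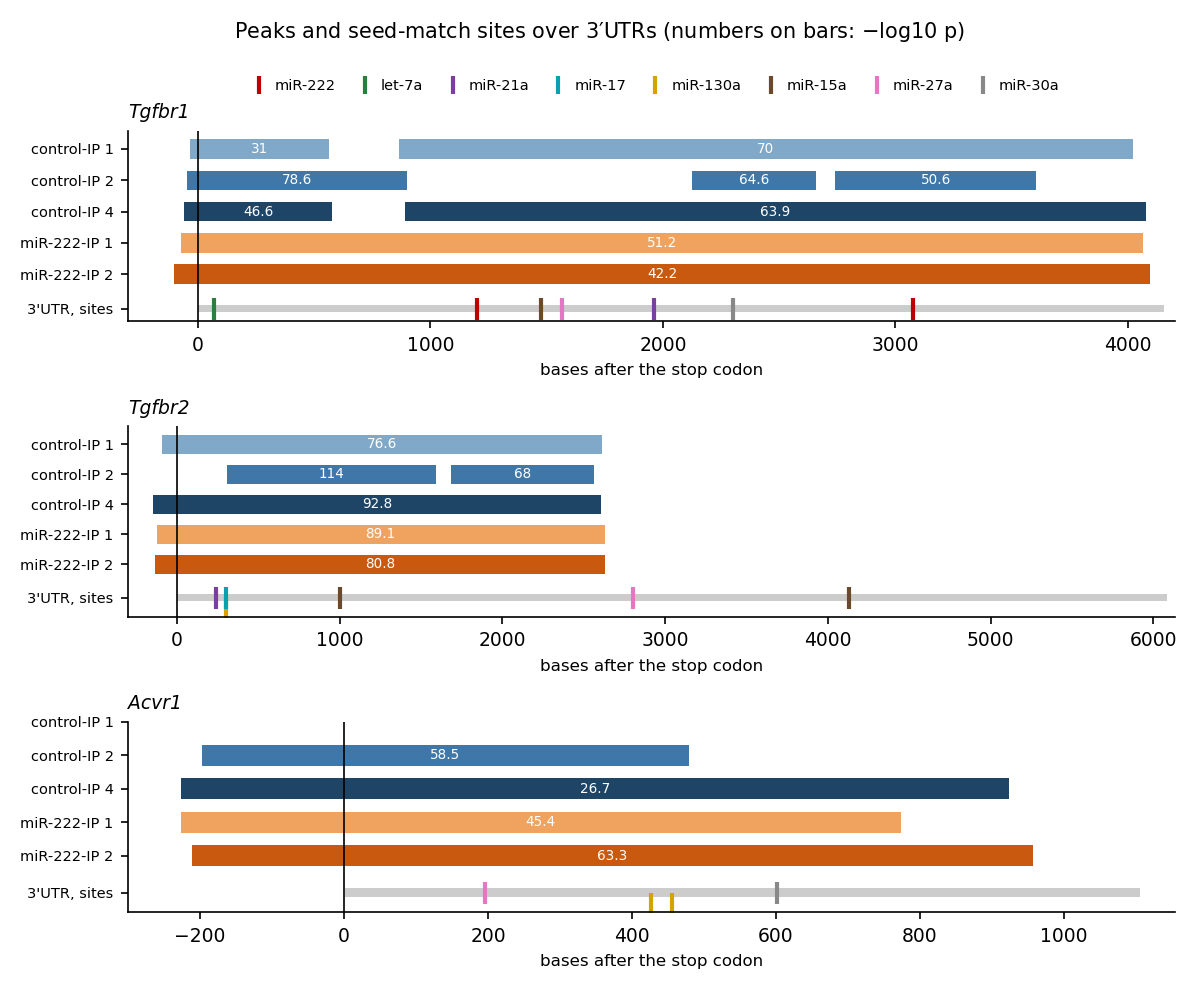
Peaks over the 3′UTRs of Tgfbr1, Tgfbr2 and Acvr1 by library (bars, with the −log10 p on each), against the distance in bases from the stop codon (horizontal axis), with seed matches of the searched families as coloured ticks on the grey 3′UTR and miR-130a ticks drawn slightly lower. The miR-222-IP bars of Tgfbr1 are unbroken, at 51.2 and 42.2, while those of the control-IPs are broken into 2 or 3 peaks.

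Of the type II receptors, Tgfbr2 (chr9:116084293-116175360, minus strand) binds TGF-beta and recruits Tgfbr1. It had 7 intervals over 7 of 8 exons, 1 of them listed in all 5 libraries. That interval (interval 7, chr9:116087746-116090524) covered the end of the CDS and 43.3% of the 3′UTR, at 76.6, 114 and 92.8 for the control-IPs, then 89.1 and 80.8 for the miR-222-IPs. The groups overlapped before scaling, and after it both miR-222-IPs were below all 3 control-IPs. Interval 7 was the only Tgfbr2 peak of control-IP replicate 1, and 4 others (intervals 1, 3, 4 and 5) were listed in the remaining 4 libraries at 22.0 to 70.0. After scaling the miR-222-IPs were below the listed control-IPs in intervals 1 and 3, and the groups overlapped in intervals 4 and 5.

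Acvr2a (chr2:48814109-48903269, plus strand) and Acvr2b (chr9:119402118-119434995, plus strand) are the activin type II receptors, and Acvr2b is also a receptor of myostatin. Acvr2a had 3 intervals over 3 of 11 exons. Its last interval (chr2:48899559-48900322), with the miR-15a match, was at 26.0 and 20.6 for control-IP replicates 1 and 4, with 47.9 and 43.8 for the miR-222-IPs, and was not listed in control-IP replicate 2. Both miR-222-IPs were above the listed control-IPs before scaling and overlapped with them after it. Its first interval (chr2:48814563-48814917), over the 5′UTR and the start of the CDS, was listed only in the miR-222-IPs, at 21.5 and 37.4. Acvr2b had 1 interval (chr9:119434252-119434785), in a 3′UTR, at 21.8 and 34.8 for the miR-222-IPs, with no control-IP listed. Values so near the lowest listed value of 20 cannot show that the control-IPs had no enrichment there.

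Bmpr2 (chr1:59763400-59879014, plus strand), the BMP type II receptor, had the most intervals, 13 over 12 of 13 exons, with 5 in all 5 libraries. Interval 8, over exon 9 (chr1:59852183-59852563), was at 45.9, 45.8 and 92.6 for the control-IPs, then 94.0 and 132 for the miR-222-IPs. Interval 9, over exon 10, was at 67.3, 40.8 and 94.3, and at 96.5 and 117. Before scaling both miR-222-IPs exceeded the control-IPs in both intervals, and after scaling the groups overlapped in both. Interval 2, over exon 2, was the highest of control-IP replicate 2 at 89.9, with 23.7 and 56.2 for control-IP replicates 1 and 4, then 60.1 and 84.9 for the miR-222-IPs. The 3′UTR of Bmpr2 was covered to 28.0% and had its highest peak, 83.7, in control-IP replicate 2. That interval (interval 13) was at 32.0 in control-IP replicate 1, at 27.5 and 27.1 in the miR-222-IPs and not listed in control-IP replicate 4. Interval 5, over exon 6, was at 20.7 and 49.9 for control-IP replicates 1 and 4, with 59.6 and 87.6 for the miR-222-IPs. Before and after scaling, the miR-222-IPs were below the listed control-IPs in interval 13 and above them in interval 5.

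**Figure D3:**
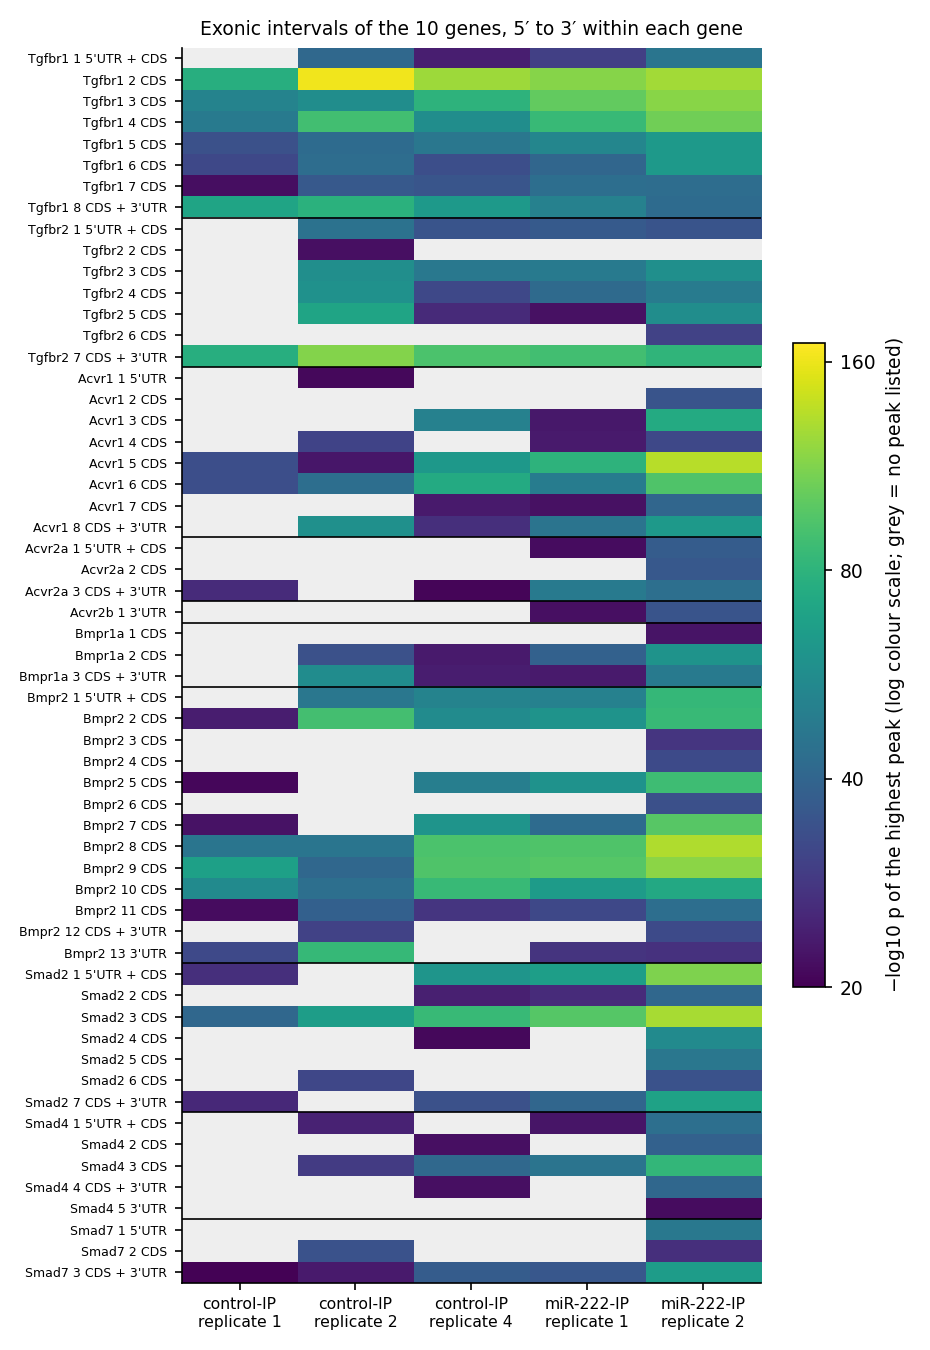
All 58 exonic intervals of the 10 genes (rows, 5′ to 3′ within each gene, named by gene and number and the transcript part they touch) in the 5 libraries (columns), coloured by −log10 p on a log colour scale with grey for no listed peak. The column of miR-222-IP replicate 2 is filled in 56 of 58 rows, and that of control-IP replicate 1 in 23.

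Smad2 (chr18:76241580-76310963, plus strand) encodes the receptor-regulated Smad of TGF-beta and activin. It had 7 intervals over 8 of 11 exons and 1 in all 5 libraries, over exon 4 (interval 3, chr18:76287821-76288220). This interval was at 40.9, 65.6 and 84.5 for the control-IPs, then 96.6 and 129 for the miR-222-IPs. Both miR-222-IPs were above all 3 control-IPs, before and after scaling.

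Smad4 (chr18:73639009-73703780, minus strand), the common partner Smad, had 5 intervals over 4 of 12 exons and none in all 5 libraries. Its highest interval, over exon 5 (chr18:73662560-73662968), was at 29.1 and 41.1 for control-IP replicates 2 and 4, with 45.5 and 82.7 for the miR-222-IPs. Smad7 (chr18:75367529-75395935, plus strand), the inhibitory Smad, had 3 intervals, of which the one over the last exon and 94.6% of the 3′UTR (interval 3, chr18:75393874-75395850) was in all 5 libraries. It was at 20.3, 23.4 and 37.3 for the control-IPs, then 35.8 and 65.2 for the miR-222-IPs. The groups of Smad7 overlapped through control-IP replicate 4, while the listed values of Smad4 did not, before or after scaling.

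Across these genes miR-222-IP replicate 2 was most often the highest library, and it was also the library with the most peaks and the highest muscle marker values. Values were therefore divided by a scale factor for each library (0.706, 0.972 and 0.989 for the control-IPs, then 1.06 and 1.49 for the miR-222-IPs), the median ratio over intervals listed in all 5 libraries. The log2 ratio of each miR-222-IP to the control-IPs of its own experiment was then averaged over both experiments. Such a mean gives the shift between miR-222-IPs and control-IPs, without a measure of how far the control-IPs differ. In experiment 2 it compares 1 miR-222-IP with the 1 control-IP that had narrow peaks. Ratios were tested with an exact permutation test (two-sided, labels moved within experiments), whose 6 arrangements cannot give a p below 0.167, so no single interval can pass 0.05.

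The median ratio of the 17 member intervals was −0.01, at 0.01 in experiment 1 and −0.08 in experiment 2, against a median of 0.00 and an SD of 0.37 over 7698 exonic intervals. After scaling both miR-222-IPs were above the control-IPs of their experiment for 3 intervals, in Acvr1, Smad2 and Smad7, or 17.6%, against 17.6% of exonic intervals. They were below for 3, a pair in Tgfbr1 and 1 in Tgfbr2, again 17.6%, against 18.0%. For the exon 2 interval of Tgfbr1 this call rested on a near tie in experiment 1. Scaled from rounded values, miR-222-IP replicate 1 was at 109 there and control-IP replicate 1 at 108. The ratio was positive in both experiments for 4 of the 17, against 27.2% of exonic intervals, and negative in both for 4, against 28.2%. As a set the intervals thus did not stand apart from all exonic intervals.

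The lowest of the 17 ratios was that of the Tgfbr1 interval with the miR-222 sites, interval 8, at −0.90 in experiment 1 and −1.19 in experiment 2 on the log2 scale (mean −1.04, exact permutation p = 0.167, n = 5 libraries). Of 7698 exonic intervals, 0.182% had a mean ratio as low, and 0.528% of the 1516 that touch a 3′UTR and are wider than 1000 bp. For Tgfbr1 interval 8 the scaled log2 ratio of control-IP replicate 1 to control-IP replicate 2 was 0.29. The mean ratio ranged from −1.48 to −0.57 over the alternatives tried, and was −0.91 with the peaks of each library averaged by length, an alternative chosen after seeing the data. Next came Tgfbr2 interval 7 (−0.42 and −0.79, mean −0.61, exact permutation p = 0.167) and the exon 2 interval of Tgfbr1 (−0.35 and −0.57, mean −0.46, exact permutation p = 0.333). With no scaling these means were −0.15 and −0.02, where the median of all exonic intervals was 0.47, and relative to that median they were −0.61 and −0.49.

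The largest ratio was that of the exon 10 interval of Acvr1, at 1.09 in experiment 1 and 0.52 in experiment 2 (mean 0.80, exact permutation p = 0.333), above 98.2% of exonic intervals. It was 0.51 without miR-222-IP replicate 1 and 1.09 without miR-222-IP replicate 2. In this interval the scaled log2 ratio of control-IP replicate 1 to control-IP replicate 2 was 1.01, close to the 1.09 of experiment 1. Bmpr2 interval 8 (0.67 and −0.08, mean 0.29, exact permutation p = 0.667) and Smad7 interval 3 (0.36 and 0.21, mean 0.29, exact permutation p = 0.333) followed, and scaling to the total −log10 p gave −0.16 and −0.15, where the median of all exonic intervals was −0.43, so that both were at 0.27 relative to it. In Smad2 interval 3 the ratio was 0.54 in experiment 1 and 0.02 in experiment 2 (mean 0.28, exact permutation p = 0.167). The other all-library intervals of Tgfbr1, intervals 3 to 7, ranged from −0.02 to 0.25, within the SD of exonic intervals, and the difference between them and interval 8 was not tested.

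**Figure D4:**
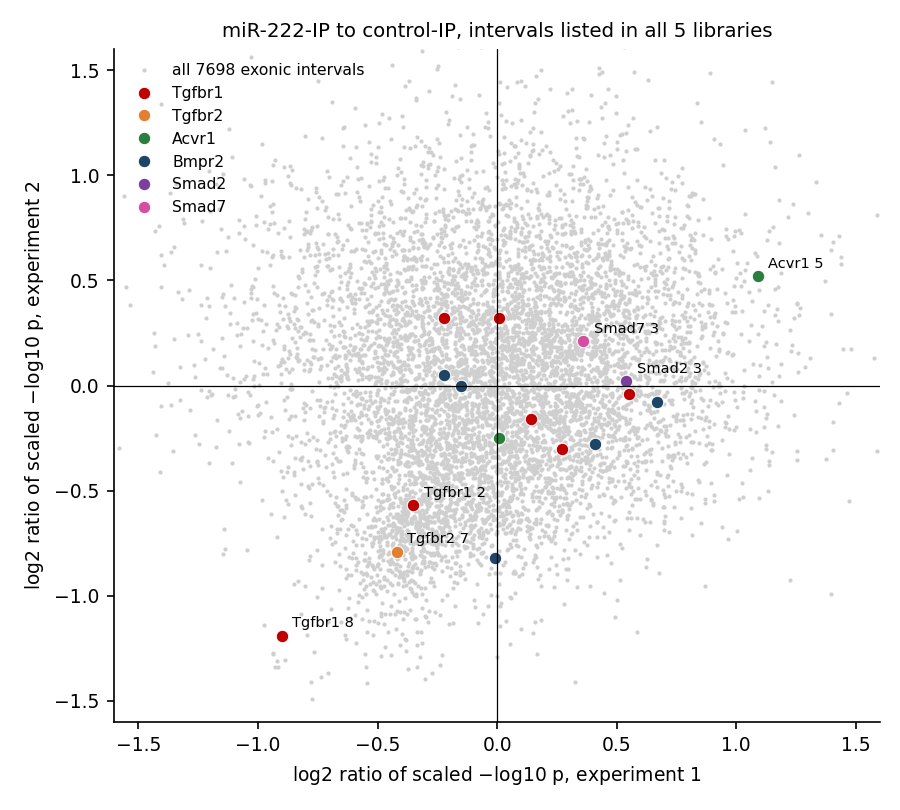
Log2 ratio of scaled −log10 p, miR-222-IP to control-IP, in experiment 1 (horizontal axis) and experiment 2 (vertical axis) for the 17 member intervals listed in all 5 libraries (coloured by gene) and for all 7698 exonic intervals (grey, of which 52 lie outside the axes). Tgfbr1 interval 8 sits low in both experiments, at −0.90 and −1.19, and Acvr1 interval 5 high in both, at 1.09 and 0.52.

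Only 3 of the 17 touch a 3′UTR (Tgfbr1, Tgfbr2 and Smad7), with ratios of −1.04, −0.61 and 0.29. Over exonic intervals that touch a 3′UTR the median was 0.03, and over those wider than 1000 bp −0.02. The 14 member intervals without 3′UTR had a median of 0.02.

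Of 79 other genes of the pathway, 43 (54.4%) had an exonic peak in at least 1 library, against 46.9% of protein-coding genes, and 19 (24.1%) in all 5, against 19.0%. The share varied with the role of the gene. Intracellular regulators had a peak in 15 of 16 genes, 9 of them in all 5 libraries, and the highest were Pmepa1, a dampener of Smad signalling (154, 117 and 167 for the control-IPs, then 152 and 115 for the miR-222-IPs), Skil, a Smad corepressor (56.1, 126 and 114, then 127 and 134) and Strap, a receptor-associated protein (88.9, 55.0 and 108, then 114 and 177). The groups overlapped for Pmepa1. For Skil and Strap both miR-222-IPs were above all 3 control-IPs before scaling, and the groups overlapped after it.

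Among the other Smads, Smad1, Smad3 and Smad5 were listed in all 5 libraries, at 44.1 to 127, 29.0 to 127 and 34.1 to 136, and Smad6 and Smad9 in none. Other receptors and co-receptors had a peak in 5 of 11 genes, with Acvr1b, the activin type I receptor, at 75.2, 87.0 and 95.3 for the control-IPs, then 92.5 and 130 for the miR-222-IPs. Eng, a TGF-beta co-receptor, had 41.4 to 81.0 in 4 libraries, and Rgmb, a BMP co-receptor, 25.8 to 82.0 in all 5. The groups overlapped for Rgmb. Those of Eng overlapped after scaling and not before it, and those of Acvr1b before scaling and not after it, with the miR-222-IPs lower. Target genes had a peak in 7 of 13, led by the cell cycle inhibitor Cdkn1a at 139 to 164, the growth regulator Myc at 53.6 to 171 and Id2 at 33.5 to 67.8 in 4 libraries. Of genes ranked lower in their roles, Neo1, Tob1 and Tsc22d1, listed in all 5 libraries, had both miR-222-IPs above the control-IPs before and after scaling. Neo1 had 31.6, 26.4 and 27.6 for the control-IPs, then 190 and 81.9 for the miR-222-IPs. The share of all genes with such an order was not computed.

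Ligands had a peak in 38.9% of their genes and latency proteins and extracellular inhibitors in 37.5%, against 46.9% of protein-coding genes. More protein-coding genes were thus missing from the lists than were on them. A peak in all 5 libraries was listed for 19.0% of protein-coding genes. Of 18 ligands 7 had a peak, with Tgfb1 alone in all 5 libraries, at 54.9, 112 and 85.3 for the control-IPs, then 89.0 and 137 for the miR-222-IPs. Bmp1, a protease grouped here with the ligands, had 27.9 to 47.1 in 3 libraries. Of 16 latency proteins and inhibitors 6 had a peak and none in all 5. In these 2 roles 10 genes were listed in miR-222-IP replicate 2 alone, among them Mstn (myostatin) at 58.9, Tgfb3 at 114 and the myostatin antagonist Fst (follistatin) at 48.0. They were 10 of the 43 listed genes of the pathway (23.3%), against 14.1% of listed protein-coding genes. That library had the high muscle marker values given above, whose part in these listings was not tested.

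**Figure D5:**
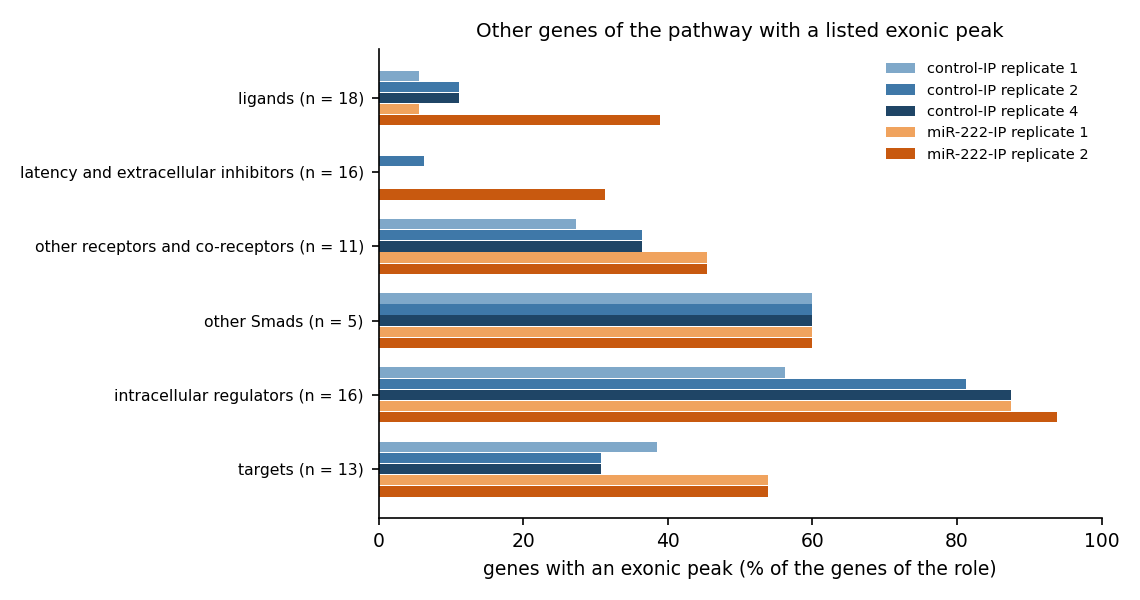
Share of the 79 other pathway genes with a listed exonic peak (horizontal axis, % of the genes of each role, with the number of genes beside the role) in each of the 5 libraries, with blue bars for control-IPs and orange bars for miR-222-IPs. Ligands and extracellular inhibitors show their longest bars in miR-222-IP replicate 2, with 7 of 18 and 5 of 16 genes, while the other Smads are at 3 of 5 in every library.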

How the data were processed

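RISC-IP RNA was amplified as cDNA and sequenced. The authors aligned reads to mm10 with SOAPSplice, converted them with bedtools and called peaks per library with MACS2 at default settings (its version is not given in the sources used here). The deposited lists give positions and the −log10 p of peaks above 20. They hold no counts, so no count model was run and counting error is unknown.

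Overlapping or adjoining peaks of the 5 libraries with narrow peaks were joined into 41363 intervals (Python 3.11.15, pandas 2.3.3, numpy 2.4.6). Exons and transcript parts came from GENCODE M21 (GRCm38, the build of the files), with each base assigned to CDS, then 3′UTR, then 5′UTR, and bedtools 2.31.1. Exon numbers refer to the transcript with the longest CDS. Sites were read from GRCm38.p6 with pysam 0.24.0. Of the miRNAs listed, 11 had a mature RefSeq entry, and miR-133a and miR-1a were not searched.

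Samples were grouped by the labels. The highest −log10 p of a library in an interval was scaled by the median of ratios and compared within experiments, as the labels give the experiment of each library. Differences between the experiments correlated at 0.11 between the miR-222-IPs and the control-IPs over 7698 intervals, as a description. Replicates may be technical in part, so p-values measure only the spread between these libraries. Alternatives covered the threshold, exon overlap, merging distance, scaling, each library left out, control-IP replicate 3, transcript type, seed length and equal list length. Code was tested on simulated data.

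The genes, the pathway list, the markers and the tests were chosen with earlier results of these data known. Named were the highest interval of each gene, intervals with a miR-222 7-mer, those listed in both miR-222-IPs and no control-IP, the 3 largest and 3 smallest mean ratios, and the 3 pathway genes of each role with the highest median. Other intervals, Smad2 interval 3, Mstn, Tgfb3, Fst, Neo1, Tob1 and Tsc22d1 were named after their values were seen. The result of 1 marker list is not reported here.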

Additional observations from a re-analysis of the deposited data

Results flagged for a closer look

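The peaks of introns enter no comparison above, and 3 intronic intervals of the 10 genes were listed for miR-222-IP replicate 2 but for no control-IP with narrow peaks. They were an interval of Tgfbr2 (chr9:116173535-116173861) at a −log10 p of 26.7, and intervals of Smad2 at chr18:76242537-76243075 (29.8) and chr18:76249451-76249720 (21.7). None was listed in miR-222-IP replicate 1, and miR-222-IP replicate 2 had the longest list, with 37762 peaks. The share over all intronic intervals was not computed. Among exonic intervals 30.9% were listed in miR-222-IP replicate 2 alone.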

How the results depend on the processing

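Of 161 alternative values, 137 were labelled as unchanged. For a single ratio this meant the same direction, for a count a change within a fixed factor. For the 3′UTR share and the median ratio it meant a change within their spread. The ratio of Tgfbr1 interval 8 entered these values more than once. A threshold of 50 left 30 intervals, 3 of them in all libraries, 6 in miR-222-IP replicate 2 alone, and 3 genes in every library. With at least 50% of a peak in exons, 9 intervals were in all libraries and 6 in miR-222-IP replicate 2 alone. The 10579 highest peaks of each library gave 0 intervals for the miR-222-IPs alone, 0 for miR-222-IP replicate 2 alone and 28 genes of the pathway list. Leaving out 1 library gave 17 to 27 intervals in all remaining libraries (27 without control-IP replicate 1), 2 to 5 in the miR-222-IPs alone (4 without control-IP replicate 2, 5 without control-IP replicate 4) and a median ratio of −0.10 to 0.15. With control-IP replicate 3 included, 1 gene, Bmpr2, was in every library, as 1 interval under the peak of 227207 bp. The median ratio of 0.20 was then the value of that interval alone and is not comparable with the other medians. The median ratio was 0.46 with no scaling and −0.43 with total scaling, where that of all exonic intervals moved to 0.47 and −0.43. Relative to these medians Tgfbr1 interval 8 was at −1.03 and −1.06. Bmpr2 interval 8 and Smad7 interval 3 turned negative with total scaling (−0.16 and −0.15), which moved all intervals alike, and both were at 0.27 relative to the median. Leaving out 1 library gave Bmpr2 interval 8 a ratio of −0.09 (without miR-222-IP replicate 1, which leaves experiment 2) to 0.67. The cause of the other shifts was not tested. Without the replicate block by experiment the median ratio was 0.00 and Tgfbr1 interval 8 was at −1.09, and the direction of the 6 named ratios did not change. The 6-mer was in 2 intervals, and the 7-mer in 4 when intron bases were included, an alternative chosen after seeing the data, as were averaging peaks by length and the equal lists for the pathway and for all libraries.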

Other observations

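Another intronic interval, of Tgfbr2 (chr9:116144498-116145094), was listed in 4 libraries, at 29.4 and 34.2 in control-IP replicates 1 and 4 and at 20.1 and 48.4 in miR-222-IP replicates 1 and 2, but not in control-IP replicate 2. No member interval touched an exon of another gene.

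Coverage of 3′UTRs by peaks differed widely between the genes. With the peaks of the 5 libraries pooled, it was 98.6% for Tgfbr1, 94.6% for Smad7, 86.5% for Acvr1 and 80.5% for Smad4, and 15.3% for Acvr2a and 14.3% for Smad2. For Smad4 such peaks were listed only in control-IP replicate 4 (526 bases) and miR-222-IP replicate 2 (628 and 378 bases). In Smad7 the 3′UTR length under a peak was 918, 573 and 982 bases in control-IP replicates 1, 2 and 4 and 1446 and 1485 bases in the miR-222-IPs. Both miR-222-IPs thus covered more of it than the 3 control-IPs. The same order held for Tgfbr1 interval 8 and, by few bases, for Tgfbr2 interval 7 (2613, 2158 and 2604, then 2629 and 2632). The miR-222-IPs had the longest lists, with 21074 and 37762 peaks. The share over all 3′UTR intervals was not computed. No match of the miR-222 7-mer lay in Smad7, whereas the shorter 6-mer TGTAGC occurred 1 time in its last interval.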
